A study of Mus musculus with 4 samples.

Results

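Interferon-stimulated genes outside the OAS and PYHIN families were examined in transformed mouse bone marrow cells. The group was set by gene symbol from a list of 40 genes, all of which were found among the 55426 genes of the deposited tables. It holds 32 targets of type I interferon and 8 GTPases that respond mainly to interferon-gamma, and 30 of the 40 (24 and 6) passed the count filter that left 13245 genes for testing.

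Type I interferons bind the receptor made of Ifnar1 and Ifnar2 and act through the kinases Jak1 and Tyk2 on the complex ISGF3, which includes Stat2 and Irf9 and binds the interferon-stimulated response element. Interferon-gamma binds Ifngr1 and Ifngr2 and acts through Jak1 and Jak2 on genes with a gamma-activated site, among them those of the IRG and GBP GTPases that attack vacuoles of intracellular microbes. Many of these genes are also transcribed at a low level without added interferon, in blood progenitors as in other cells.

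The cells of interest carried MLL-ENL ∆YEATS, a shortened form of the leukaemia fusion MLL-ENL that per its label holds ENL residues 372 to 559, so all ENL residues before 372 are absent, which is more than the YEATS domain. The cells they were compared with carried MLL-ENL, with ENL residues not given in the sources used here. Both came from haematopoietic stem and progenitor cells of lineage-negative mouse bone marrow, which were transformed and grown in IMEM with serum. No added interferon was named in the labels. Poly(A)-selected RNA was sequenced from 2 libraries of each, which the series' design text calls technical replicates. All p-values therefore measure only the spread between libraries, and fusion and cell line cannot be told apart.

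The libraries held 28814798 and 28177480 expected counts for MLL-ENL ∆YEATS and 28121268 and 27812855 for MLL-ENL. Libraries of MLL-ENL ∆YEATS lay closer together than those of MLL-ENL: the log2 ratio within the pair had an SD of 0.137 against 0.338 over the 30 tested members. Chi-square per degree of freedom, over all genes past a low count limit in the pair, was 1.99 against 89.8. A ribosomal RNA gene took 5.46% and 5.42% of the counts in MLL-ENL ∆YEATS and 9.25% and 4.94% in MLL-ENL replicates 1 and 2. That gene is included in the chi-square values, and its part in them was not tested. In the MLL-ENL pair the ratio of replicate 1 to replicate 2 also fell with transcript length across genes (Spearman's rho = -0.41, against 0.07 in the MLL-ENL ∆YEATS pair; genes are not independent replicates). Pan-haematopoietic markers summed to 1251 and 1258 CPM (counts scaled to library size) in MLL-ENL ∆YEATS and to 1234 and 1262 CPM in MLL-ENL. Of the progenitor markers, Cd34 had 3 and 3 counts against 0 and 0, Flt3 had 1 and 1 against 5 and 3, and Kit had 77 and 112 against 1350 and 1882. Of 5 myeloid markers, Mpo (59.4 and 62.4 CPM against 594 and 466 CPM) and Cebpa (86.1 and 82.5 CPM against 277 and 282 CPM) were lower, Spi1 (244 and 241 CPM against 168 and 183 CPM) and Csf1r (9.54 and 8.90 CPM against 3.92 and 5.55 CPM) were higher and Itgam was not called, and the 5 summed to 787 and 776 CPM against 1256 and 1295 CPM. Of the plasmacytoid dendritic cell markers, Siglech (1 and 0 against 0 and 0 counts), Ly6d (0 and 0 against 1 and 0), Ccr9 (3 and 3 against 5 and 2) and Klk1 (0 in every library) were at or near 0. The remaining marker of that list, Tcf4, had 22.5 and 21.1 CPM against 35.9 and 28.8 CPM (adjusted p = 0.058, not called). In addition, the defining T-cell, NK-cell and B-cell genes Cd3e, Ncr1 and Ms4a1 were at 0 in every library. Of the conventional dendritic cell markers, Itgax had 66 and 53 counts against 1 and 2, while Xcr1 (5 and 5 against 1 and 1), Clec9a (1 and 0 against 1 and 0) and Zbtb46 (0 and 4 against 2 and 1) were near 0. Macrophage markers summed to 46.5 and 43.9 CPM against 19.4 and 28.7 CPM, nearly all of it Adgre1, which was higher, while Mrc1 was not called (log2 fold change -0.045) and C1qa was at 0 in every library. The part of these cell-state differences in the results was not tested, and in bulk RNA fewer cells of a type and less RNA per cell cannot be told apart. Mllt1 (ENL) had 64.0 and 59.3 CPM against 67.7 and 62.1 CPM, and Kmt2a (MLL) 70.5 and 67.9 CPM against 51.9 and 84.1 CPM, but with the counting of fusion reads unstated these genes do not show which fusion a library held.

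Promoters of 5 members are printed to show the elements through which interferon acts on both classes. Each stretch holds the 150 bases before the RefSeq transcription start (build GRCm38.p6), 5′ to 3′ on the strand of the gene, and capitals mark matches to the core of the element bound by IRF factors and ISGF3 (GAAA, any 2 bases, GAAA; the IRF motif) or to TTCNNNGAA (the element bound by STAT dimers; the STAT motif) on either strand. Trim30a (chr7:104465194-104465343, minus strand) and Gbp3 (chr3:142559894-142560043, plus strand) show, for each class, the called member with the largest change among those with a promoter in the RefSeq table. Irgm2 (chr11:58214827-58214976, plus), Isg15 (chr4:156200819-156200968, minus) and Ifit1 (chr19:34640739-34640888, plus) were chosen after their values were seen, as members that were not called or had too few counts to test. Only windows with a match to the IRF motif before the start were printed, so these 5 do not describe the members at large.
Trim30a: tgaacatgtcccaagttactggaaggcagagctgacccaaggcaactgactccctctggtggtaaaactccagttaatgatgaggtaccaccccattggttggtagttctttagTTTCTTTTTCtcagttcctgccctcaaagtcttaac
Gbp3: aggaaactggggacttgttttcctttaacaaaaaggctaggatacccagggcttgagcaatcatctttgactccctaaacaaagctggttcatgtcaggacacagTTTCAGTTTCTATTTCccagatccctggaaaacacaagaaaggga
Irgm2: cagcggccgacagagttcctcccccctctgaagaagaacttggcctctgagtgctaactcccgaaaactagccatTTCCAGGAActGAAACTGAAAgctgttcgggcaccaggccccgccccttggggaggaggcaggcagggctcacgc
Isg15: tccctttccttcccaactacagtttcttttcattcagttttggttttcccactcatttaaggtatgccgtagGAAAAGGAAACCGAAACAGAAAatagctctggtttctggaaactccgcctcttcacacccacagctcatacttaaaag
Ifit1: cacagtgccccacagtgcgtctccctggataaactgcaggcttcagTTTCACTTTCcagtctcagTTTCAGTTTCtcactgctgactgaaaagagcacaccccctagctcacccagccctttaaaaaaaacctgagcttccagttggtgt
Isg15 holds 3 overlapping matches to the IRF motif, Gbp3 2 overlapping matches and Ifit1 2 separate ones. Irgm2 holds 1 match beside 1 match to the STAT motif, and the 30 bases after its RefSeq start are in no Irgm2 transcript of GENCODE M21. Matches describe letters, and no binding was measured in these data.

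The listed interferon-stimulated genes were lower or not called in MLL-ENL ∆YEATS cells, and the size of the difference varied widely between members. Of the 30 tested members 8 were called lower (26.7%), against 9.84% of all tested genes (edgeR's quasi-likelihood test with Benjamini-Hochberg adjustment over all 13245 genes, threshold 0.05). None was called higher, by edgeR (0 also at an unadjusted p under 0.05), by DESeq2 or by limma, against 7.04% of all tested genes called higher by edgeR. Of the 8, 5 were lower by at least 2-fold, against 6.43% of all tested genes that were both called lower and lower by at least 2-fold. The median log2 fold change, MLL-ENL ∆YEATS minus MLL-ENL, was -0.33 over the tested members and -0.01 over all tested genes. It was below 0 in 24 members and above 0 in 6. Both MLL-ENL ∆YEATS libraries lay below both MLL-ENL libraries in 21 members, against 32.2% of all tested genes, and above both in 4, against 32.1%. In the other 5 the libraries overlapped. The counts depended on which libraries set the spread: without MLL-ENL replicate 1 or 2, 17 and 14 members were lower and 2 and 4 higher (of all tested genes 3787 and 4501 were then lower and 3678 and 4598 higher), and without MLL-ENL ∆YEATS replicate 1 or 2, 5 and 5 were lower and 0 and 0 higher (of all genes 861 and 844 lower and 558 and 548 higher). Where a library is left out, the lone library of its group is assumed to vary like the other group. Calls without an MLL-ENL library therefore rest on the spread of the close MLL-ENL ∆YEATS pair. With a replicate block, and after removal of a gene-length trend, 1 member was called higher. The 22 members that were not called are not shown to be alike in both cells.

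**Figure D1:**
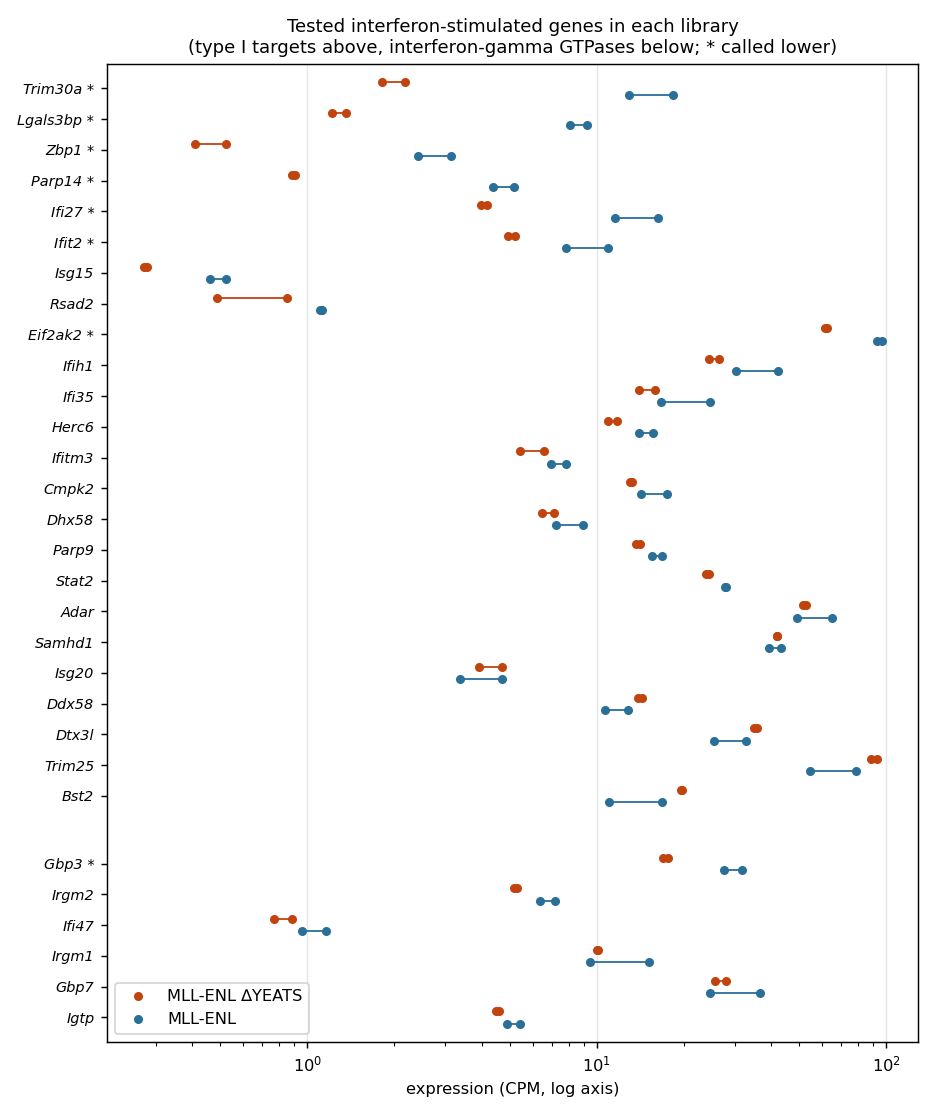
Expression of the 30 tested members in each library, in CPM on a log axis, with a point per library and a line joining the 2 libraries of a group. The starred genes were called lower, and the MLL-ENL ∆YEATS pairs are shorter than most MLL-ENL pairs.

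Among the antiviral effectors, 2 of 9 tested genes were lower. Eif2ak2, the kinase PKR that stops translation when it binds double-stranded RNA, had 62.6 and 61.5 CPM in MLL-ENL ∆YEATS and 96.3 and 92.7 CPM in MLL-ENL (log2 fold change -0.61 ± 0.11 SE, 1.52-fold lower, adjusted p = 0.0174; chromosome 17, 78852564 to 78882573, GRCm38). Its groups were well apart, and the difference is the smallest among the called members. Ifit2, an RNA-binding protein that holds back viral translation, had 4.94 and 5.20 CPM in MLL-ENL ∆YEATS and 7.80 and 10.9 CPM in MLL-ENL (-0.89 ± 0.21 SE, adjusted p = 0.044; chromosome 19, 34550694 to 34576419). The call of Ifit2 ended without MLL-ENL ∆YEATS replicate 1 or 2 (adjusted p = 0.151 and 0.0992) and with scaling by library totals (0.0696), and that of Eif2ak2 without either of the same libraries (0.343 and 0.385).

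The other tested effectors were not called, Samhd1 and Adar among them. Samhd1, which depletes the nucleotides that viruses need for reverse transcription, had 42.0 and 42.0 CPM in MLL-ENL ∆YEATS and 39.3 and 43.3 CPM in MLL-ENL (log2 fold change 0.02 ± 0.11 SE, 95% interval -0.26 to 0.31, adjusted p = 0.904). Adar, which edits double-stranded RNA, had 52.7 and 51.6 CPM in MLL-ENL ∆YEATS and 49.1 and 64.9 CPM in MLL-ENL (-0.13 ± 0.16 SE, adjusted p = 0.617). Both MLL-ENL ∆YEATS values of these genes lay between the MLL-ENL values. Without MLL-ENL replicate 1 Adar was called lower (log2 fold change -0.32), and without MLL-ENL replicate 2 it was above 0 (0.09, not called). Adar shares 1365 exonic bases with the opposite-strand gene Chrnb2, and with no strand setting given their reads cannot be told apart.

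Several effectors best known as interferon-inducible had a few CPM or none, while Bst2 and Cmpk2 had more. Isg20, an RNA exonuclease, had 3.92 and 4.71 CPM in MLL-ENL ∆YEATS and 3.36 and 4.69 CPM in MLL-ENL (log2 fold change 0.10 and, without MLL-ENL replicate 1, -0.12, neither called). Rsad2, the enzyme viperin, had 0.851 and 0.489 CPM in MLL-ENL ∆YEATS and 1.12 and 1.10 CPM in MLL-ENL (-0.72, adjusted p = 0.213). The membrane protein Bst2, or tetherin, which holds budding virions at the cell surface, lay above 0, with 19.7 and 19.6 CPM in MLL-ENL ∆YEATS and 16.8 and 11.02 CPM in MLL-ENL (0.50 ± 0.22 SE, adjusted p = 0.178). Bst2 was called higher with a replicate block (adjusted p = 0.029) and after removal of a gene-length trend (0.0459). It was also called higher without either MLL-ENL library, where the MLL-ENL ∆YEATS pair alone set the spread. Cmpk2 and Ifitm3, a mitochondrial nucleotide kinase and a block to virus entry, had log2 fold changes of -0.27 and -0.30 and were not called. Mx1 had no count in any library, which allows up to 0.102 and 0.105 CPM in MLL-ENL ∆YEATS and 0.112 and 0.107 CPM in MLL-ENL (3 counts each, counting error only).

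The ISG15 system and its ubiquitin ligases held the largest decrease of all members. Trim30a, a TRIM ubiquitin ligase that restrains NF-κB signalling in mouse, had 2.18 and 1.81 CPM in MLL-ENL ∆YEATS and 12.9 and 18.3 CPM in MLL-ENL (log2 fold change -2.96 ± 0.24 SE, 7.80-fold lower, adjusted p = 0.00159; chromosome 7, 104409025 to 104465193). Its groups were far apart, and its promoter holds 1 match to the IRF motif just upstream of the start, as printed above. Trim25, the ubiquitin ligase that activates RIG-I, had 88.5 and 92.5 CPM in MLL-ENL ∆YEATS and 54.6 and 78.7 CPM in MLL-ENL (0.44 ± 0.19 SE, 95% interval -0.04 to 0.92, adjusted p = 0.178). Trim25 was called higher without MLL-ENL replicate 1 (log2 fold change 0.20) or 2 (0.73). Isg15, the ubiquitin-like modifier, had only 8 and 8 counts in MLL-ENL ∆YEATS and 14 and 13 in MLL-ENL (-0.83 ± 0.36 SE, adjusted p = 0.179). Herc6, which attaches Isg15 to proteins in mouse, had 10.97 and 11.8 CPM in MLL-ENL ∆YEATS and 14.0 and 15.6 CPM in MLL-ENL (-0.38, adjusted p = 0.112). It shares 1269 exonic bases with the same-strand gene Gm45193, so the split of their reads is uncertain. Herc6 was called lower after removal of the gene-length trend (adjusted p = 0.0403), and without either MLL-ENL library, with the same limit as for Bst2. Usp18, which removes Isg15 and damps the type I receptor, had 4 and 3 counts in MLL-ENL ∆YEATS and 2 and 5 in MLL-ENL and was not tested.

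Of the 4 nucleic acid sensors, Zbp1 was lower. Zbp1, a sensor of Z-form nucleic acids that can start necroptosis, had 0.409 and 0.523 CPM in MLL-ENL ∆YEATS and 3.14 and 2.42 CPM in MLL-ENL (log2 fold change -2.56 ± 0.30 SE, 5.91-fold lower, adjusted p = 0.00475; chromosome 2, 173206612 to 173218923). Ifih1, the long double-stranded RNA sensor MDA5, had 26.5 and 24.5 CPM in MLL-ENL ∆YEATS and 30.3 and 42.2 CPM in MLL-ENL (-0.51 ± 0.18 SE, adjusted p = 0.124). Its libraries did not overlap, and it was called lower with a replicate block (0.039) and after removal of the gene-length trend (0.0354). It was also called lower without either MLL-ENL library, where the MLL-ENL ∆YEATS pair alone set the spread. Ddx58, which encodes RIG-I, had 14.3 and 13.9 CPM in MLL-ENL ∆YEATS and 10.7 and 12.8 CPM in MLL-ENL (0.26, adjusted p = 0.272, but called higher without MLL-ENL replicate 2). Dhx58, their helicase relative LGP2, had a log2 fold change of -0.26 and was called lower without MLL-ENL replicate 2.

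Stat2, the ISGF3 subunit, had 23.9 and 24.5 CPM in MLL-ENL ∆YEATS and 27.7 and 27.99 CPM in MLL-ENL. The MLL-ENL ∆YEATS libraries were lower without overlap, but the difference was small and not called (log2 fold change -0.20 ± 0.11 SE, 95% interval -0.48 to 0.07, adjusted p = 0.262). It was called without MLL-ENL replicate 1 (-0.21) or 2 (-0.19).

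In the PARP family and its partner, Parp14 was lower, and Parp9 and Dtx3l were not called. Parp14, which attaches single ADP-ribose units to proteins, had 0.886 and 0.907 CPM in MLL-ENL ∆YEATS and 4.37 and 5.19 CPM in MLL-ENL (log2 fold change -2.41 ± 0.22 SE, 5.31-fold lower, adjusted p = 0.00235; chromosome 16, 35832874 to 35871544). Parp9 and Dtx3l form a ubiquitin ligase complex and lie 66926 and 54967 bases from Parp14. Dtx3l had 35.0 and 35.8 CPM in MLL-ENL ∆YEATS and 25.5 and 32.9 CPM in MLL-ENL (0.28 ± 0.15 SE, adjusted p = 0.276; called higher without MLL-ENL replicate 2, log2 fold change 0.47). Parp9 had 13.6 and 14.1 CPM in MLL-ENL ∆YEATS and 15.5 and 16.8 CPM in MLL-ENL (-0.22, adjusted p = 0.276; called lower without MLL-ENL replicate 1, -0.28). Parp9 and Dtx3l differed in sign, but they overlap on opposite strands over 458 exonic bases, so the split of their reads is uncertain.

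Of the other 3 tested type I targets, 2 were lower. Lgals3bp, a secreted glycoprotein that binds galectins, had 1.36 and 1.22 CPM in MLL-ENL ∆YEATS and 8.10 and 9.25 CPM in MLL-ENL (log2 fold change -2.74 ± 0.19 SE, 6.69-fold lower, adjusted p = 0.00106; chromosome 11, 118392751 to 118402092). Among the 8 called members, Lgals3bp alone was called in all 14 alternative analyses. Ifi27, a small hydrophobic membrane protein, had 4.19 and 3.98 CPM in MLL-ENL ∆YEATS and 16.3 and 11.5 CPM in MLL-ENL (-1.77 ± 0.21 SE, 3.40-fold lower, adjusted p = 0.00561; chromosome 12, 103434211 to 103440239). Ifi35, a partner of the regulator Nmi, had 14.0 and 15.8 CPM in MLL-ENL ∆YEATS and 24.7 and 16.7 CPM in MLL-ENL (-0.47 ± 0.21 SE, adjusted p = 0.19). The 2 MLL-ENL values of Ifi35 differ more from each other than the lower of them differs from MLL-ENL ∆YEATS, and it was called lower only without MLL-ENL replicate 2 (log2 fold change -0.73) among the alternatives.

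Type I targets and interferon-gamma GTPases had similar medians, and the large decreases among the listed members stood in the type I targets. Of 24 tested type I targets 7 were lower (29.2%, against 9.84% of all tested genes), with a median log2 fold change of -0.34. Of 6 tested GTPases 1 was lower (16.7%, against the same 9.84%), with a median of -0.32 and all 6 values below 0. The sum over all type I targets was 449 and 453 CPM in MLL-ENL ∆YEATS and 494 and 552 CPM in MLL-ENL, and that over the GTPases was 64.3 and 65.7 CPM against 74.7 and 96.6 CPM. The 5 members lower by at least 2-fold were Trim30a, Lgals3bp, Zbp1, Parp14 and Ifi27, all type I targets. This contrast holds for the listed members only. Of 7 other tested interferon-inducible GTPases, 4 were called and lower by at least 2-fold, some with few counts, against 6.43% of all tested genes. Without MLL-ENL replicate 1 or 2, the median was -0.36 and -0.34 over the type I targets and -0.45 and -0.26 over the GTPases. The GTPase call ended without either MLL-ENL ∆YEATS library. With 6 GTPases tested, the difference between the classes was not tested.

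Gbp3 was the called GTPase. This guanylate-binding protein had 17.7 and 17.0 CPM in MLL-ENL ∆YEATS and 27.4 and 31.7 CPM in MLL-ENL (log2 fold change -0.77 ± 0.13 SE, 1.70-fold lower, adjusted p = 0.0154; chromosome 3, 142560026 to 142573209). Its call ended without MLL-ENL ∆YEATS replicate 1 or 2 (adjusted p = 0.112 and 0.164). Gbp7, 9877 bases away, had 25.6 and 28.02 CPM in MLL-ENL ∆YEATS and 24.6 and 36.5 CPM in MLL-ENL (-0.19 ± 0.21 SE, 95% interval -0.71 to 0.33, adjusted p = 0.566). The Gbp7 groups overlap, and its log2 fold change was -0.45 without MLL-ENL replicate 1, where it was called, and 0.12 without MLL-ENL replicate 2. Gbp7 also shares 637 exonic bases with a processed pseudogene, so its reads are uncertain.

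The IRG family acts on vacuoles of intracellular pathogens, and none of its 4 tested members was called. Irgm1 had 10.12 and 10.02 CPM in MLL-ENL ∆YEATS and 9.49 and 15.2 CPM in MLL-ENL (log2 fold change -0.29, adjusted p = 0.446). Irgm2 had 5.31 and 5.16 CPM in MLL-ENL ∆YEATS and 6.35 and 7.15 CPM in MLL-ENL (-0.37, adjusted p = 0.182). Irgm1 and Irgm2 restrain the effector GTPases on the cell's own membranes, and only Irgm1 overlapped between the groups. Without MLL-ENL replicate 1 both were called lower (-0.59 and -0.45), and without MLL-ENL replicate 2 neither was (0.09 and -0.28). Igtp had a log2 fold change of -0.18 and shares 162 exonic bases with Irgm2, and Ifi47 had one of -0.35 at under 1.2 CPM in every library.

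**Figure D2:**
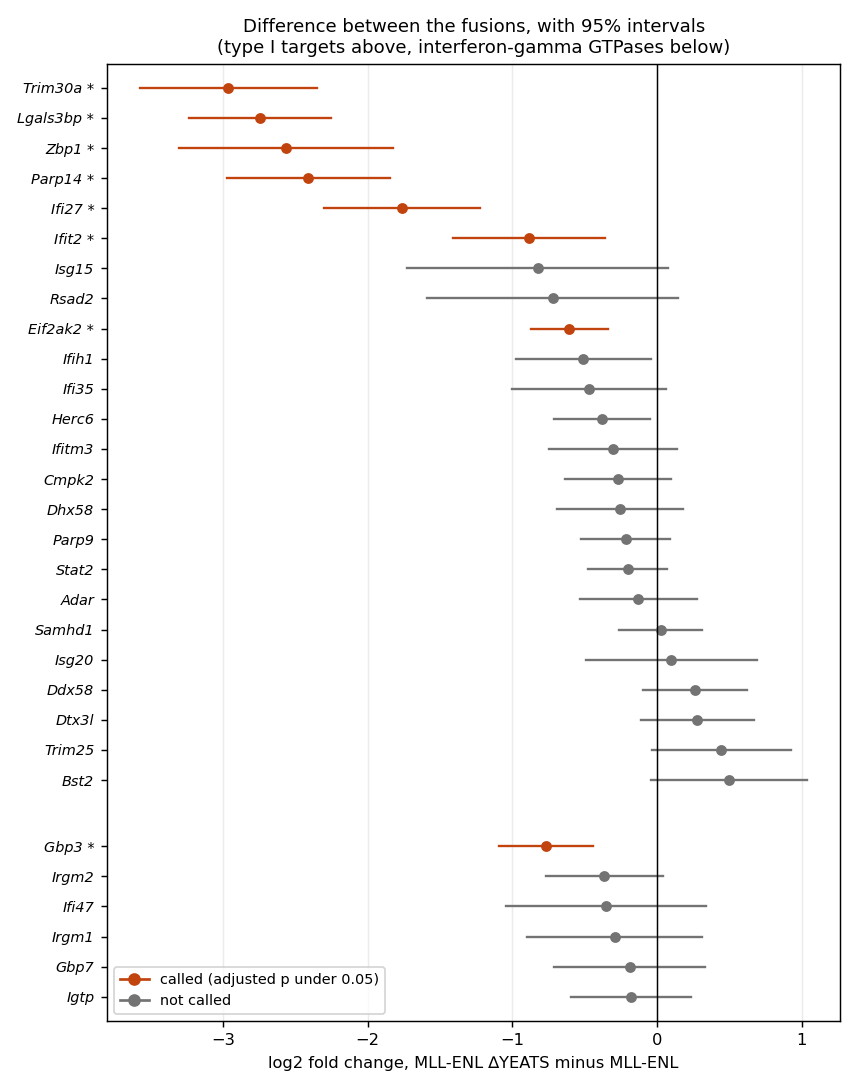
Log2 fold change of each tested member, MLL-ENL ∆YEATS minus MLL-ENL, with its 95% interval from edgeR. The called members run from Trim30a at -2.96 to Eif2ak2 at -0.61, and the values above 0, Samhd1 to Bst2, have intervals that include 0.

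The 10 members under the filter had at most 8 counts in a library, and 4 of them had counts in every library. The cap-binding effector Ifit1 had 3 and 5 counts in MLL-ENL ∆YEATS and 3 and 3 in MLL-ENL, and Gbp2 had 5 and 8 against 6 and 5. Ifit3, Ifi44, Rtp4 and Iigp1 had no counts in MLL-ENL ∆YEATS and 1 or 2 in all in MLL-ENL, and Mx2 had 1 count in all, in MLL-ENL ∆YEATS. Xaf1, a pro-apoptotic partner of XIAP, had 2 and 3 counts against 6 and 3. No difference in these genes was detectable at this depth.

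Levels per transcript length (FPKM, the authors' values) differed widely between members. Bst2 stood highest in MLL-ENL ∆YEATS, at 40.03 and 39.5 FPKM, and at 31.4 and 22.5 FPKM in MLL-ENL. Ifi27 had 9.23 and 7.28 FPKM in MLL-ENL ∆YEATS and 30.5 and 22.5 FPKM in MLL-ENL, next to Bst2 and Eif2ak2 in the MLL-ENL libraries. Eif2ak2 had 19.4 and 17.7 FPKM in MLL-ENL ∆YEATS and 26.3 and 27.4 FPKM in MLL-ENL. These 3 do not separate beyond their spread in MLL-ENL, whereas in MLL-ENL ∆YEATS they stand in the order Bst2, Eif2ak2, Ifi27 without overlap. They are not a group apart: in MLL-ENL Samhd1, at 23.3 and 24.6 FPKM, lay within the range of Bst2 and of Ifi27. In MLL-ENL ∆YEATS Trim25 (25.1 and 25.5 FPKM) and Samhd1 (22.8 and 20.7 FPKM) stood above Eif2ak2. Parp14 stayed low on this scale, at 0.13 and 0.13 FPKM in MLL-ENL ∆YEATS and 0.60 and 0.76 FPKM in MLL-ENL.

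The IRF motif was present in members of every outcome. RefSeq windows from 250 bases before to 50 after the start were available for 30 of the 40 members. The IRF motif stood in the windows of 17 of these 30 genes (11 of 23 type I targets and 6 of 7 GTPases), against 3.99% of 27025 genes with a window. It was found in 3 of 5 members called lower (Trim30a, Gbp3 and Eif2ak2), in 11 of 20 that were tested and not called, and in 3 of 5 that were not tested. The STAT motif, which reads alike on both strands, stood in 11 of the 30 genes (8 type I targets and 3 GTPases), against 9.55% of all genes, in 2 of 5 members called lower (Eif2ak2 and Ifit2), in 9 of 20 tested and not called and in 0 of 5 not tested. Overlapping matches of the 2 motifs were counted for each motif. The genes whose promoters are printed above include Isg15 and Ifit1, with 3 and 2 matches to the IRF motif and at most 14 counts in any library.

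**Figure D3:**
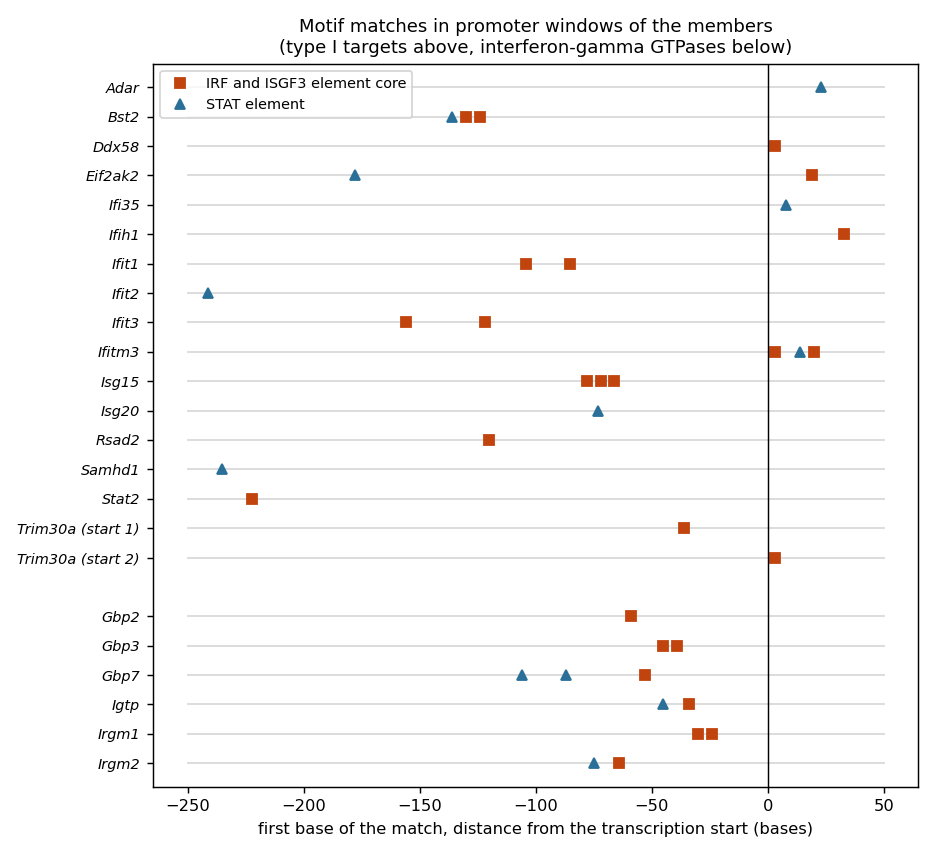
Position of each motif match relative to the transcription start for the promoter windows with a match, with squares for the IRF motif and triangles for the STAT motif. In the GTPases all matches lie upstream of the start, within 106 bases, and in the type I targets they lie on both sides.

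Genes beside the called members were called about as often as tested genes at large. Of 27 tested genes within 100 kb of a called member, 2 were higher and 3 lower, against 7.04% and 9.84% of all tested genes. The 27 include the uncalled members Dtx3l, Parp9 and Gbp7. All 3 lower ones (Trim30d, Trim12a and Gbp5) belong to the TRIM and GBP families, like the called members beside them. Hspbap1, which lies 4397 bases from Parp14, had 17.3 and 15.1 CPM in MLL-ENL ∆YEATS and 5.38 and 6.54 CPM in MLL-ENL (log2 fold change 1.44 ± 0.17 SE, adjusted p = 0.00471), opposite to Parp14. Trim30d, 4821 bases from Trim30a, had 0.1703 and 0.140 CPM in MLL-ENL ∆YEATS and 1.49 and 1.49 CPM in MLL-ENL (-3.23 ± 0.33 SE, adjusted p = 0.00326). Trim30a, Trim30b and Trim30d are close copies, and how reads were split between them is uncertain. Trim12a was also lower (-0.64, adjusted p = 0.0323, and not called without MLL-ENL ∆YEATS replicate 1 or 2, adjusted p = 0.373 and 0.204), while Trim30b was not called (-0.62, adjusted p = 0.259). Gbp5, 37682 bases from Gbp3, had 1 and 3 counts in MLL-ENL ∆YEATS and 17 and 17 in MLL-ENL (adjusted p = 0.017, and 0.0776 without MLL-ENL ∆YEATS replicate 1). Lipa, beside Ifit2, was higher (0.58, adjusted p = 0.0418), a call that ended without MLL-ENL ∆YEATS replicate 1 or 2 (0.4 and 0.351).

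**Figure D4:**
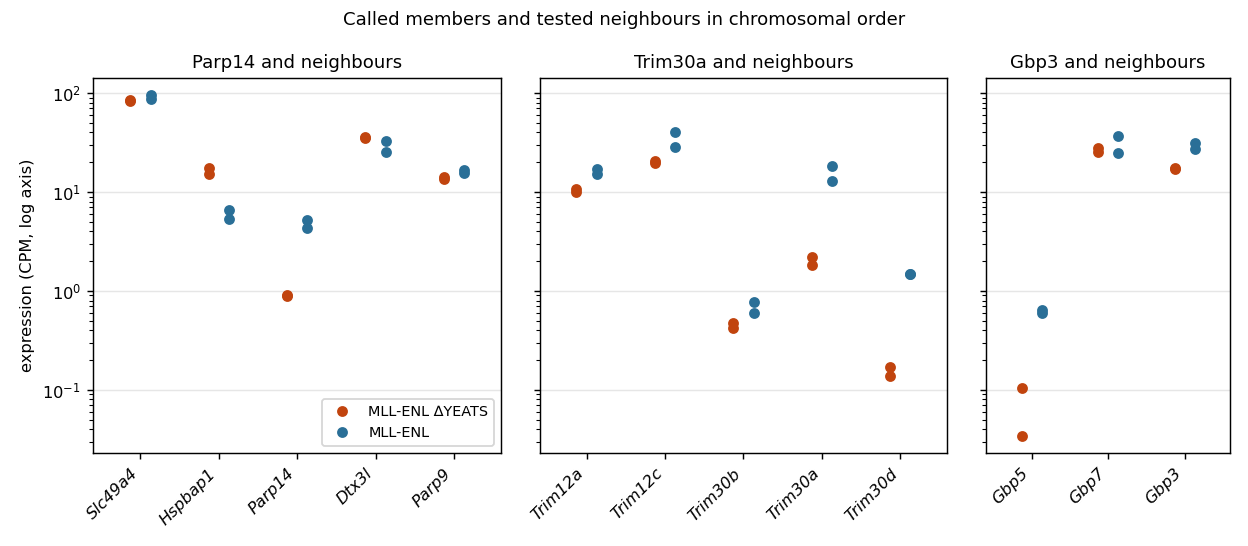
Expression in CPM on a log axis for Parp14, Trim30a and Gbp3 and chosen tested neighbours, in chromosomal order, with a point per library. Hspbap1 is higher and Parp14 lower in MLL-ENL ∆YEATS, while Trim30a and Trim30d are both lower.

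Upstream of these genes, no interferon was detected at a testable level. Of 21 interferon genes 19 had no count in any library, and Ifnk and Ifnz had 2 counts and 1 count in all, in MLL-ENL. In the receptors, kinases and STATs, the negative regulators and the sensors, the counts were near the shares of all tested genes, 9.84% lower and 7.04% higher. Of 11 tested receptors, kinases and STATs, Jak1 was lower (9.09%) and 10 were not called. Jak1, the kinase shared by both interferon receptors, had 92.0 and 90.6 CPM in MLL-ENL ∆YEATS and 163 and 209 CPM in MLL-ENL (log2 fold change -1.03 ± 0.15 SE, adjusted p = 0.0105). Ifnar1 (0.12, adjusted p = 0.616), Ifnar2 (-0.10, 0.539) and Irf9 (0.03, 0.928) were not called. Among 8 negative regulators 1 was lower (12.5%): Ptpn1, a phosphatase that acts on Jak2 and Tyk2, had 150 and 146 CPM in MLL-ENL ∆YEATS and 361 and 346 CPM in MLL-ENL (-1.25 ± 0.10 SE, adjusted p = 0.00158). Of 13 tested sensors and adaptors outside the member list, Tlr7, an endosomal sensor of single-stranded RNA, was higher, with 10.97 and 10.8 CPM against 2.02 and 4.09 CPM (1.83 ± 0.32 SE, adjusted p = 0.0184). Ticam1, the adaptor TRIF, was lower, with 13.5 and 13.7 CPM against 19.7 and 20.9 CPM (-0.58 ± 0.12 SE, adjusted p = 0.0272; 0.372 and 0.335 without MLL-ENL ∆YEATS replicate 1 or 2). Without MLL-ENL replicate 1 or 2 the receptors, kinases and STATs had 8 and 4 genes lower and 1 and 5 higher, the sensors and adaptors 5 and 5 lower and 3 and 4 higher, and the negative regulators 4 and 5 lower and 2 and 0 higher.

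Other interferon-inducible genes moved in both directions. Of all tested genes 9.84% were lower and 7.04% higher. Of 7 other tested inducible GTPases 4 were lower (57.1%) and 1 higher (14.3%). The giant GTPase Gvin1 had 12.6 and 13.1 CPM in MLL-ENL ∆YEATS and 23.2 and 35.6 CPM in MLL-ENL (-1.19 ± 0.22 SE, adjusted p = 0.022), and Gbp6 had 2.32 and 2.20 CPM against 0.672 and 0.960 CPM (1.46 ± 0.27 SE, adjusted p = 0.021, and 0.0528 without MLL-ENL ∆YEATS replicate 1). Tgtp2, chosen after its values were seen, had 1 and 0 counts in MLL-ENL ∆YEATS and 20 and 32 in MLL-ENL. Gbp6, Gvin1 and Tgtp2 have near-identical copies, as does Serpina3g, so how their reads were split is uncertain. Of 5 tested interferon-gamma targets that are not GTPases, 3 were lower (60%) and 0 higher. Fewer were called lower without either MLL-ENL ∆YEATS library. Serpina3g, a protease inhibitor, had 0.1703 and 0.174 CPM against 9.97 and 8.50 CPM (-5.71 ± 0.27 SE, adjusted p = 0.000361), and the adhesion molecule Icam1 had 10.3 and 10.5 CPM against 19.7 and 18.4 CPM (-0.87 ± 0.12 SE, adjusted p = 0.00866; 0.0741 and 0.0568 without MLL-ENL ∆YEATS replicate 1 or 2). Of 24 other tested interferon-stimulated genes 8 were lower (33.3%) and 5 higher (20.8%). Without MLL-ENL replicate 1 or 2, 15 and 14 of these were lower and 6 and 9 higher, and without MLL-ENL ∆YEATS replicate 1 or 2, 4 were lower and 3 higher. Ifitm1, a relative of Ifitm3, had 1.36 and 1.71 CPM in MLL-ENL ∆YEATS and 82.0 and 68.7 CPM in MLL-ENL (-5.61 ± 0.19 SE, adjusted p = 0.000284), and Trim34a had 1.77 and 1.85 CPM against 6.39 and 6.01 CPM (-1.77 ± 0.18 SE, adjusted p = 0.00315). Opposite to these, Epsti1 had 4.19 and 3.94 CPM in MLL-ENL ∆YEATS and 0.934 and 0.605 CPM in MLL-ENL (2.40 ± 0.27 SE, adjusted p = 0.00449), and Slfn1, a restrainer of T-cell growth in mouse, had 0.988 and 1.05 CPM against 0.299 and 0.142 CPM (2.19 ± 0.41 SE, adjusted p = 0.0213).

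**Figure D5:**
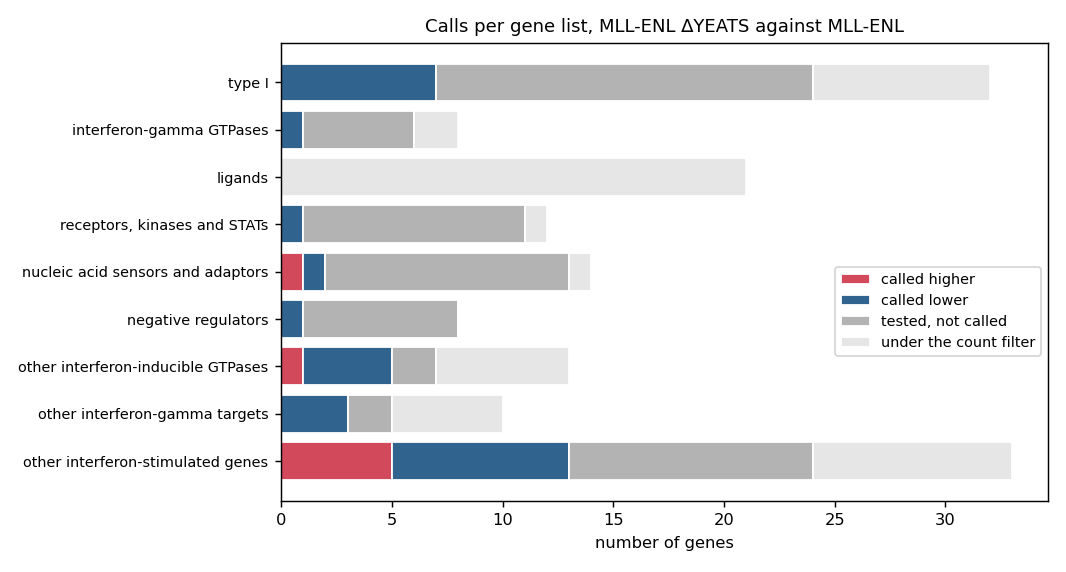
Number of genes called higher, called lower, tested and not called, or under the count filter in both member classes and in 7 further interferon lists, MLL-ENL ∆YEATS against MLL-ENL. No member of either class was called higher, whereas 5 of the other interferon-stimulated genes were, and all 21 ligands lay under the filter.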

How the data were processed

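Gene tables of 4 poly(A) RNA libraries were used. The authors deposited expected counts per gene, RSEM estimates that were whole numbers as deposited, and FPKM, which the authors scaled by transcript length and library size. Per the submitters' processing notes the tools included RSEM 1.3.3, STAR 2.7.8a, FastQC 0.11.8 and cutadapt 2.3, with the build GRCm38. Their settings, strand and annotation release were not given in the sources used here. GENCODE M21 matched 55240 of 55426 gene identifiers and gave positions and overlaps.

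Groups came from sample titles. Expected counts were filtered with filterByExpr (13245 genes), scaled by TMM and tested with edgeR 4.0.16 in R 4.3.3 (glmQLFit with the legacy setting, glmQLFTest; Benjamini-Hochberg adjustment, threshold 0.05). CPM are TMM-scaled, and SE is the log2 fold change divided by the square root of F. The model had 2 residual and 3.41 prior degrees of freedom. It was run on simulated counts with the same spread for all genes and both groups. These libraries differ in spread, so that run does not show how the test behaves here. Alternatives were DESeq2 1.42.0 and its size factors, library totals, no filter, a minimum of 5 CPM in 2 libraries, a replicate block, limma 3.58.1 on log2(FPKM + 1 or 0.1), removal of a gene-length trend and each library left out. Totals ran from 27812855 to 28814798, and floors of 3 counts cover counting error only.

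Members and lists were chosen with earlier results of these data known. Values per library are given for every called member and every uncalled one with at least 20 CPM in a group, and per further list for the 2 called genes with the largest change each way at 1 CPM or more; other genes named were chosen after their values were seen. Promoters are from RefSeq (GRCm38.p6), matched by symbol.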

Additional observations from a re-analysis of the deposited data

How the results depend on the processing

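All 8 calls of lower members held with DESeq2, its size factors, no filter, a replicate block and removal of a gene-length trend, and 7 held with scaling by library totals. A minimum of 5 CPM dropped Zbp1 and Parp14 and left 23 members, with the other 6 calls held. limma on log2(FPKM + 1), log2(FPKM + 0.1) and unfiltered log2(FPKM + 1) called 5, 5 and 1 members lower (1 type I target in the last) and 0, 0 and 0 GTPases. The calls of Eif2ak2 (adjusted p = 0.0613, 0.0586 and 0.0931), Ifit2 (0.178, 0.191 and 0.359) and Gbp3 (0.0748, 0.0661 and 0.139) ended in all 3, and those of Zbp1 (0.0774), Ifi27 (0.0695), Parp14 (0.0582) and Trim30a (0.0655) in the last. Each log2 fold change of the 8 stayed below 0 in every alternative that gave a value. The cause of these changes was not tested.

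The replicate numbers were not shown to pair libraries (correlation of deviations -0.04). With the replicate block, 1435 genes were higher and 1 member, the type I target Bst2, was called higher, and removal of the gene-length trend also made 1 type I member higher. Over all genes, 545 were higher and 805 lower at a minimum of 5 CPM. limma called 837 lower on filtered log2(FPKM + 1), and 381 lower and 293 higher without a filter. With a library left out, 548 to 4598 genes were higher and 844 to 4501 lower, 0 to 4 members (all type I) were higher, and 5 to 17 members were lower, 5 to 13 of them type I and 0 to 4 GTPases. A lone library is then assumed to vary like the other group.

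The median log2 fold change stayed below 0 throughout. For all members it was -0.27 with library totals, -0.20, -0.26 and -0.20 with limma, and -0.43 to -0.29 with a library left out. For type I targets it was -0.29 with library totals, -0.28 at 5 CPM, -0.21, -0.26 and -0.21 with limma, and -0.41 to -0.34 with a library left out. For the GTPases it was -0.16 with limma on log2(FPKM + 1), filtered or not, and -0.45 to -0.26 with a library left out. Samhd1 was below 0 with limma (-0.14 in all 3) and after removal of the length trend (-0.058), and ran from -0.044 to 0.096 with a library left out. The same range was -0.12 to 0.36 for Isg20, -0.32 to 0.085 for Adar, -0.59 to 0.086 for Irgm1 and -0.45 to 0.12 for Gbp7.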

Other observations

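Beside Epsti1 and Slfn1, 3 further interferon-stimulated genes outside the member list were called higher in MLL-ENL ∆YEATS cells and were chosen after their values were seen. Slfn5, of the Schlafen family, had 2.49 and 2.65 CPM in MLL-ENL ∆YEATS and 1.12 and 1.17 CPM in MLL-ENL (log2 fold change 1.16, edgeR adjusted p = 0.0222, and 0.0984 and 0.165 without MLL-ENL ∆YEATS replicate 1 or 2). Parp12, a relative of Parp14 that also attaches single ADP-ribose units, had 3.27 and 3.28 CPM in MLL-ENL ∆YEATS and 0.896 and 1.60 CPM in MLL-ENL (1.38, adjusted p = 0.0367). Parp12 and Parp14 thus ran in opposite directions. Shisa5, a membrane protein, had 81.6 and 86.5 CPM in MLL-ENL ∆YEATS and 61.7 and 60.5 CPM in MLL-ENL (0.46, adjusted p = 0.0416, and 0.505 and 0.639 without MLL-ENL ∆YEATS replicate 1 or 2). Ifitm2, in the family of Ifitm1 and Ifitm3, had 89.2 and 95.02 CPM in MLL-ENL ∆YEATS and 155 and 123 CPM in MLL-ENL (-0.60, adjusted p = 0.0487, and 0.45 and 0.324 without MLL-ENL ∆YEATS replicate 1 or 2). Of these 3 family members Ifitm1 had by far the largest difference, and Ifitm3 was not called.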
